A study of Mus musculus with 9 samples.

Results

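The simple epithelial keratins Krt7, Krt8, Krt18, Krt19 and Krt20 were followed in mouse kidney RNA, as 5 of the 22637 gene symbols measured. They were taken by name as the keratins of simple epithelia, with earlier results of these data known. All 5 passed the filter on low counts that left 17315 genes to be tested. The libraries formed 3 groups of 3, all from kidneys of 129X1/SvJ mice at 9 weeks of age. KO_antimiR21 mice lacked Col4a3 and received an inhibitor of the microRNA miR-21. KO_PBS mice lacked Col4a3 and received PBS. WT mice were wild type and had no treatment, so they carried neither the deletion nor an injection of PBS. Col4a3 encodes a chain of the type IV collagen of the glomerular basement membrane, and its loss is a mouse model of Alport syndrome, a hereditary kidney disease. The series asks how the diseased kidney differs from the healthy one and what inhibition of miR-21 changes in it. Nothing in the labels tells whether replicates were different mice, and the p-values below measure only the spread between these samples.

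Keratins are the intermediate filament proteins of epithelial cells, and a filament forms only when an acidic type I chain pairs with a basic type II chain. Krt7 and Krt8 are type II chains; Krt18, Krt19 and Krt20 are type I chains. Krt8 and Krt18 are the basic pair of single-layered epithelia, including kidney tubules, whereas Krt7 and Krt19 are typical of ducts and collecting ducts and Krt20 of urothelium and gut. Keratins of simple epithelia are known to be induced when epithelial cells are stressed or injured, where their filaments give mechanical support.

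Each library held 26448275 to 31786624 expected counts. Col4a3, the deleted gene, was measured at 104, 70.6 and 138 CPM (counts scaled to the TMM-adjusted library size) in KO_antimiR21 libraries. It had 44.3, 94.3 and 60.2 CPM in KO_PBS libraries, against 371, 257 and 316 CPM in WT libraries. Every knockout library was thus below every WT library, although reads of the gene remained. Summed CPM of 4 Y-linked genes was at least 102 in the 6 knockout libraries and in WT 2, against 0.926 in WT 1 and 1.51 in WT 3, so WT 2 was the one male WT library and sex was partly tied to genotype. A code in the deposited names, whose meaning is not given in the sources used here, read L5 for KO_PBS 3 and all KO_antimiR21 libraries and L4 for KO_PBS 1, KO_PBS 2 and all WT libraries.

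The 5 genes sit in both keratin gene clusters of the mouse. Krt7, Krt8 and Krt18 lie on chromosome 15 and Krt19 and Krt20 on chromosome 11. Krt18 is the one type I gene in the type II cluster, and no protein-coding gene is annotated between it and Krt8. The RefSeq promoter table (GRCm38.p6) held 4 of the 5 members, Krt7, Krt8, Krt18 and Krt20. The 150 bases before each annotated start are shown because the members had higher values together in knockout kidneys; capitals mark matches to TATAAA or GGGCGG on either strand. The Krt7 stretch is chr15:101412253-101412402 on the plus strand, that of Krt8 chr15:102004343-102004492 on the minus strand, that of Krt18 chr15:102028066-102028215 on the plus strand, and that of Krt20 chr11:99438154-99438303 on the minus strand.
Krt7: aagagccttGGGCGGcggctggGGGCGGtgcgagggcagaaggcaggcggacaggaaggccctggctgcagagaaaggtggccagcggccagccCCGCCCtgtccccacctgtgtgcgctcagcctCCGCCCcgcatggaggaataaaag
Krt8: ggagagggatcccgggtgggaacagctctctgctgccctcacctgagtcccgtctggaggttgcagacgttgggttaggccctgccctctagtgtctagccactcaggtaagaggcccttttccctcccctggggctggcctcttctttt
Krt18: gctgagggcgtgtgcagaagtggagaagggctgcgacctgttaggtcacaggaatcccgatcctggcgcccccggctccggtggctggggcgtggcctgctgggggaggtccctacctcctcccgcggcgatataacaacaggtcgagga
Krt20: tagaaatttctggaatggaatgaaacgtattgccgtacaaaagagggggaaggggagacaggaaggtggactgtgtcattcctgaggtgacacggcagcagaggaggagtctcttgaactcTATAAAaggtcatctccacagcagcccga

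The 4 promoters had little in common in these letters. Searched over 250 bases before and 50 after the start on both strands, Krt7 held 4 matches to GGGCGG, the core letters of an Sp1 site, beginning 141, 128, 56 and 24 bases before the start. Krt20 held 1 TATAAA, beginning 29 bases before the start. TATAAA in the Krt8 window overlapped the start itself and is not capitalised above, and the Krt18 window held neither motif. TGANTCA, the letters of an AP-1 site, and TTCNNNGAA, those of a STAT site, were in none of the 4 windows. Among the 27025 genes searched in the table, 15.7% held TATAAA, 38.2% GGGCGG, 8.97% TGANTCA and 9.55% TTCNNNGAA in any of their windows.

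The drug's target, miR-21a-5p, is shown because the drug inhibits it, with its seed (bases 2 to 8) in capitals.
mmu-miR-21a-5p: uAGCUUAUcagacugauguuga
No match to ATAAGCT, the site that pairs with this seed, was present in the longest annotated 3′ UTR of Krt7, Krt8, Krt18, Krt19 or Krt20. Of 11770 tested genes searched in the same way, 7.8% held one, so most genes have no match. The 3′ UTRs of the members were 2648, 242, 66, 103 and 578 bases long in the same order. A short one has little room for a match, and the share was not matched for length. The search covers these letters alone.

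Krt8, the type II partner of Krt18, had the largest difference between KO_PBS and WT relative to its error. It was measured at 378.5, 411 and 250.1 CPM in KO_antimiR21 libraries and at 664, 481 and 465 CPM in KO_PBS libraries, against 133, 210.4 and 189 CPM in WT libraries. All 3 groups were apart, with KO_PBS highest, KO_antimiR21 between and WT lowest. The group means were 347 ± 85.1 CPM in KO_antimiR21, 537 ± 110 CPM in KO_PBS and 177 ± 40.1 CPM in WT (SD, n = 3 each).

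Krt7, the second type II chain, varied least among the groups. It stood at 301, 271 and 196 CPM in KO_antimiR21 libraries and 453, 280 and 269 CPM in KO_PBS libraries, against 157, 176 and 219 CPM in WT libraries. KO_PBS libraries were all above WT libraries, whereas KO_antimiR21 libraries overlapped both of the other groups. Its means were 256 ± 54.2 CPM in KO_antimiR21, 334 ± 103 CPM in KO_PBS and 184 ± 32.0 CPM in WT (SD, n = 3 each).

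Krt18, the type I partner of Krt8, had 91.6, 119 and 89.0 CPM in KO_antimiR21 libraries and 252, 154 and 94.1 CPM in KO_PBS libraries, against 21.4, 79.4 and 74.1 CPM in WT libraries. WT libraries were all below both knockout groups, and the knockout groups overlapped each other. WT 1 was far below the other WT libraries. The KO_PBS libraries were widely spread, with KO_PBS 1 highest and KO_PBS 3 lowest. The means were 99.7 ± 16.4 CPM in KO_antimiR21, 167 ± 79.9 CPM in KO_PBS and 58.3 ± 32.1 CPM in WT (SD, n = 3 each).

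Krt19, a type I chain that lacks most of the usual tail domain, gave 42.8, 59.0 and 30.7 CPM in KO_antimiR21 libraries and 142, 70.7 and 58.3 CPM in KO_PBS libraries, against 4.89, 27.0 and 12.8 CPM in WT libraries. Every knockout library again exceeded every WT library, and the lowest KO_PBS library lay just below the highest KO_antimiR21 library. Its means were 44.2 ± 14.2 CPM in KO_antimiR21, 90.3 ± 45.1 CPM in KO_PBS and 14.9 ± 11.2 CPM in WT (SD, n = 3 each).

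Krt20, the type I chain best known from urothelium and gut, was low in WT kidneys. It reached 33.9, 61.3 and 16.4 CPM in KO_antimiR21 libraries and 55.0, 39.2 and 59.7 CPM in KO_PBS libraries, against 0.253, 4.33 and 0.201 CPM in WT libraries. The WT values rest on 6, 108 and 5 expected counts, so the male library WT 2 held nearly all of the WT signal. No WT library came near the lowest knockout library, and the knockout groups overlapped. Means were 37.2 ± 22.7 CPM in KO_antimiR21, 51.3 ± 10.7 CPM in KO_PBS and 1.59 ± 2.37 CPM in WT (SD, n = 3 each). In whole-kidney RNA, a change in the number of cells of a type and a change in RNA per cell cannot be told apart, for this gene or the others.

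**Figure D1:**
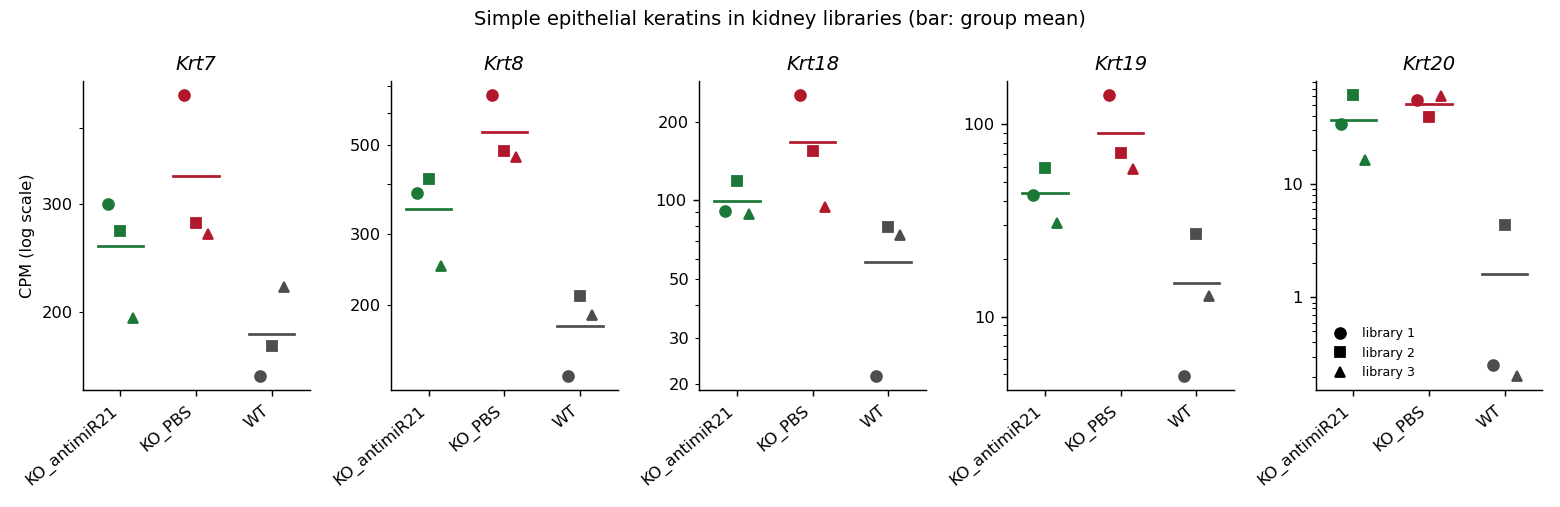
CPM of each keratin in the 9 libraries, 1 panel a gene, on log axes that differ between panels; points are libraries (circle 1, square 2, triangle 3) and bars are group means. All 5 panels have the KO_PBS libraries above the WT libraries, by the widest margin for Krt20 (39.2 to 59.7 CPM in KO_PBS, 0.201 to 4.33 CPM in WT).

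The groups had the same order by mean for all 5 genes, with KO_PBS highest, KO_antimiR21 next and WT lowest. Per kilobase of transcript (GENCODE M21 lengths), Krt8 was the most abundant member in every library, with 48.1% to 51.5% of the members' summed level in KO_antimiR21, 45.6% to 54.4% in KO_PBS and 46.0% to 54.6% in WT. Its level was 177 ± 43.5 CPM per kilobase in KO_antimiR21, 274 ± 56.4 in KO_PBS and 90.6 ± 20.5 in WT (SD, n = 3 each). Krt20's share of the same sum was 3.20% to 7.44% in KO_antimiR21 and 3.84% to 7.10% in KO_PBS, against 0.0498% to 0.998% in WT. Krt7's place depended on the length used: in WT it had 45.0 ± 7.81 CPM per kilobase of transcript and 134 ± 23.3 CPM per kilobase of coding sequence (SD, n = 3), because its annotated transcript is 4094 bases long and its coding sequence 1371. Per kilobase of coding sequence Krt8 had 121 ± 27.3 CPM in WT (SD, n = 3), within the spread of Krt7, so which of them was more abundant in WT depends on that choice.

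The first comparison asked how keratin expression in the PBS-treated knockout kidney differs from that of the healthy kidney. Krt7, Krt8, Krt19 and Krt20 rose in KO_PBS kidneys relative to WT kidneys, and none of the 5 fell. The call is an adjusted p under 0.05 in edgeR's quasi-likelihood test, over all 17315 genes; log2 fold changes are given ± SE. Of all tested genes, 24.4% passed, 14.6% higher and 9.85% lower, against 4 of these 5, all higher. The members, and the gene lists below, were chosen with earlier results of these data known, so their counts are no independent test. Without TMM factors all 5 keratins passed and the split of calls over all genes was 3753 higher to 904 lower, against 2521 to 1705 with them. The median log2 fold change of the 5 was 1.60, and that of all genes was -0.03.

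Krt20 had the largest fold change of the 5, with a log2 fold change of 4.998 ± 1.002, or 32.0-fold (edgeR adjusted p = 0.00871). It ranked 44 of 17315 genes from the top by fold change but 1515 by p. The rank by fold change favours genes near 0 in WT, where Krt20 had 6, 108 and 5 expected counts. Krt19 followed at 2.60 ± 0.59, or 6.06-fold (adjusted p = 0.0146). The change of Krt8 was smaller, 1.60 ± 0.26 or 3.03-fold, with the lowest adjusted p of the 5, 0.00357. Krt7 was higher by 0.86 ± 0.25, or 1.81-fold (adjusted p = 0.0381). Krt18 had 1.52 ± 0.49, or 2.86-fold, with an approximate 95% interval of 0.41 to 2.63, and its adjusted p of 0.0522 missed the threshold. Its KO_PBS and WT libraries nevertheless did not overlap, as was so for all 5 members and for 43.0% of all tested genes (22.6% higher and 20.4% lower).

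The calls in KO_PBS relative to WT did not all hold when sex was taken into account or single libraries were left out. All knockout libraries were male, so with sex as a covariate the difference of either knockout group from WT rested on WT 2. The fit of male libraries rested on it too and is not a separate check. The loss of calls there cannot tell an effect of sex from the loss of WT libraries. With sex as a covariate no member was called (edgeR adjusted p of 0.0553 for Krt20 to 0.403 for Krt18), nor was any of the 17315 genes; the log2 fold changes were then 0.92 for Krt7, 1.35 for Krt8, 1.07 for Krt18, 1.74 for Krt19 and 3.57 for Krt20. Among male libraries, with WT 2 as the single WT library and its spread assumed to equal that of the other groups, they were 0.95, 1.38, 1.10, 1.77 and 3.59 in the same order, and no member was called. Within code L4 (KO_PBS 1 and KO_PBS 2 against the 3 WT libraries) the values were 1.01, 1.70, 1.82, 2.85 and 4.89, and the 4 members other than Krt18 passed; with the code as a covariate all 5 passed (edgeR adjusted p of 0.00858 to 0.0411). Krt7 lost its call without any single WT library and without KO_PBS 1 (0.57) or KO_PBS 2, Krt19 lost it without WT 3 (edgeR adjusted p = 0.0532), and Krt18 gained one without KO_PBS 3 (adjusted p = 0.0389). Without WT 2 the log2 fold change of Krt20 was 7.81. Krt18 also passed in DESeq2, at an adjusted p of 0.00735.

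The second comparison asked what miR-21 inhibition did to the keratins of the knockout kidney. No keratin was called between KO_antimiR21 and KO_PBS kidneys, and the same held for every other gene: 0.0% of the 17315 passed in edgeR, where 1203 genes had an unadjusted p under 0.05 and the lowest adjusted p was 0.707. DESeq2 called 19 genes, with no member among them. All 5 keratins had negative log2 fold changes, with a median of -0.63, against -0.01 over all tested genes. Negative values were not particular to the keratins. Among the lists described below, injured tubule markers had a median of -0.55 (-1.14 to -0.11) in this comparison. Other intermediate filament genes had a median of -0.42 (-1.10 to -0.04). Proximal tubule markers had a median of 0.80, and intercalated cell markers 0.55. This comparison and the one above share the KO_PBS libraries, so their signs are not independent.

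Krt8 had a log2 fold change of -0.63 ± 0.25 between KO_antimiR21 and KO_PBS, with an approximate 95% interval of -1.20 to -0.06 (edgeR adjusted p = 0.707, unadjusted 0.0339). It was the one member whose KO_antimiR21 and KO_PBS libraries did not overlap, which was so for 10.7% of all tested genes (3.83% higher and 6.84% lower). For Krt7 the difference was -0.38 ± 0.25, with an interval of -0.95 to 0.19. Krt18 gave -0.74 ± 0.48, interval -1.83 to 0.35. Krt19 had the most negative value, -1.03 ± 0.56, interval -2.30 to 0.24. Krt20 gave -0.46 ± 0.82, and its interval of -2.31 to 1.39 was the widest of the 5. Leaving out 1 library moved the values of all 5 but turned no sign: Krt7 had -0.08 without KO_PBS 1 and -0.52 without KO_antimiR21 1, and Krt8 had -0.42 without KO_antimiR21 3 and -0.75 without KO_antimiR21 2. Krt18 had -0.29 without KO_PBS 1 and -0.998 without KO_PBS 3, Krt19 had -0.52 without KO_PBS 1 and -1.27 without KO_antimiR21 2, and Krt20 had -0.087 without KO_antimiR21 3 and -1.01 without KO_antimiR21 2, the lowest and highest sizes for each gene. The intervals of Krt7, Krt18, Krt19 and Krt20 all included 0.

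Within code L5, which leaves KO_PBS 3 as the single KO_PBS library, the log2 fold changes of KO_antimiR21 over KO_PBS were -0.07 for Krt7, -0.43 for Krt8, 0.08 for Krt18, -0.40 for Krt19 and -0.68 for Krt20. The sign of Krt18 thus depended on KO_PBS 1 and KO_PBS 2.

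The third comparison set treated knockout kidneys against healthy ones. Krt20 rose in KO_antimiR21 kidneys relative to WT kidneys, by a log2 fold change of 4.53 ± 0.98 or 23.2-fold (edgeR adjusted p = 0.0255). It was the 1 member of 5 that passed, where 7.15% of all tested genes passed, 6.72% higher and 0.427% lower. Krt8 had 0.97 ± 0.25, or 1.95-fold (adjusted p = 0.0553). Krt19 had 1.57 ± 0.57, or 2.97-fold (adjusted p = 0.163). For Krt18 the value was 0.77 ± 0.48 (adjusted p = 0.432), and for Krt7 it was 0.48 ± 0.25 (adjusted p = 0.342). The KO_antimiR21 and WT libraries of Krt8, Krt18, Krt19 and Krt20 did not overlap, against 24.5% of all tested genes (14.6% higher and 9.82% lower), and those of Krt7 did.

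Krt20 lost its call against WT without KO_antimiR21 1, without KO_antimiR21 2, without WT 1 and without WT 3 (edgeR adjusted p of 0.0572 to 0.0882), with the 2 groups fitted alone (adjusted p = 0.0816), with sex as a covariate (log2 fold change 3.10, adjusted p = 0.172) and among male libraries (3.14, adjusted p = 0.194). Without WT 2 the log2 fold change of Krt20 was 7.36 (edgeR adjusted p = 0.00424). No code was shared between these groups, so no value within a code could be had; with the code as a covariate, which rests on KO_PBS holding both codes, Krt20 had 4.19 (adjusted p = 0.423).

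**Figure D2:**
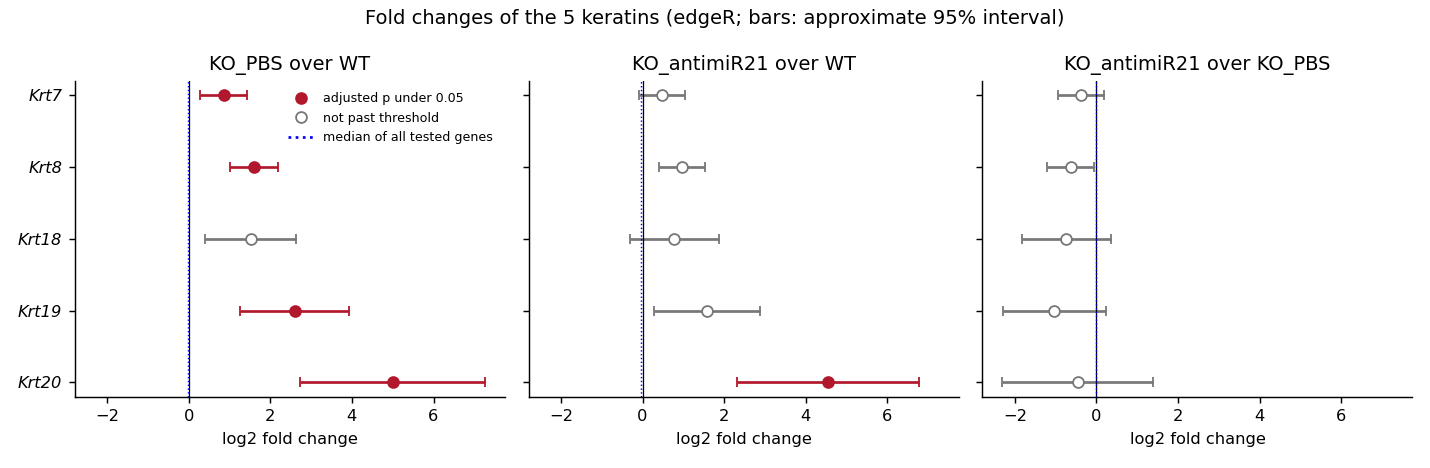
Log2 fold changes of the 5 keratins (rows) in the 3 comparisons (panels); points are edgeR estimates, bars are approximate 95% intervals, filled points passed an adjusted p of 0.05, and the dotted line is the median of all tested genes. KO_PBS over WT has 4 filled points, KO_antimiR21 over WT has 1 (Krt20), and KO_antimiR21 over KO_PBS has none, with all 5 estimates below 0.

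Ratios between members within a library ask whether the genes moved by the same amount; they cancel library size but not transcript length. The Krt8 to Krt18 ratio of CPM had a mean log2 value of 1.78 ± 0.28 in KO_antimiR21, 1.78 ± 0.47 in KO_PBS and 1.80 ± 0.73 in WT (SD, n = 3 each). Single libraries ranged from 1.49 to 2.05 in KO_antimiR21, 1.40 to 2.31 in KO_PBS and 1.35 to 2.64 in WT, and WT 1 was the highest of all. The groups overlapped, and the difference of KO_PBS minus WT was -0.02 (exact two-sided permutation p = 0.9). Of the exact permutation tests on these ratios, none could give a p below 0.1 with 3 libraries against 3.

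Relative to Krt8, Krt7 had lower values in both knockout groups than in WT. The log2 ratio of Krt7 to Krt8 was -0.33, -0.60 and -0.35 in KO_antimiR21 libraries and -0.55, -0.78 and -0.79 in KO_PBS libraries, against 0.24, -0.26 and 0.22 in WT libraries. Both knockout groups lay below every WT library, with mean differences from WT of -0.49 for KO_antimiR21 and -0.78 for KO_PBS (exact permutation p = 0.1 each, the smallest the design allows). The male library WT 2 had the WT value nearest to the knockout libraries, which were all male (-0.26). The part of sex in the ratios was not tested.

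Relative to Krt8, Krt20 had higher values in both knockout groups than in WT. The log2 ratio of Krt20 to Krt8 was -3.48, -2.74 and -3.93 in KO_antimiR21 libraries and -3.59, -3.62 and -2.96 in KO_PBS libraries, against -9.03, -5.60 and -9.87 in WT libraries. WT libraries were all lower, by a mean of 4.78 in each comparison (exact permutation p = 0.1 each). Here too the male library WT 2 was the WT library nearest to the knockout libraries (-5.60). Between KO_antimiR21 and KO_PBS the means differed by 0.00 (exact permutation p = 1). The Krt19 to Krt8 ratio had means of -2.99 ± 0.17 in KO_antimiR21, -2.66 ± 0.40 in KO_PBS and -3.87 ± 0.90 in WT (SD, n = 3 each), and the groups overlapped in all 3 comparisons (exact permutation p = 0.2 to 0.3).

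**Figure D3:**
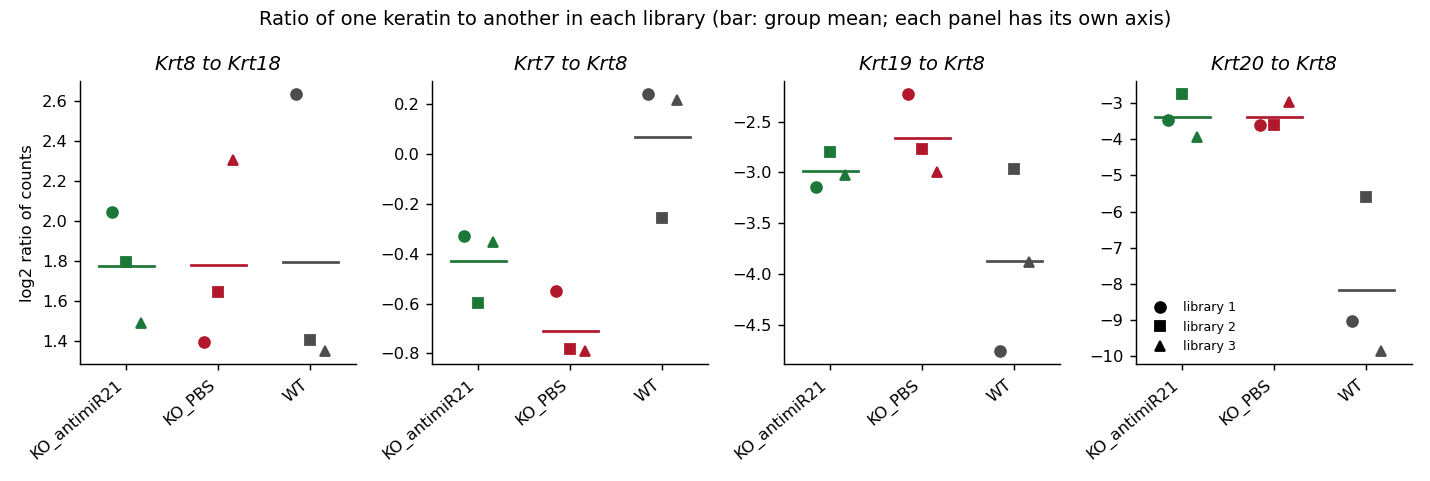
Log2 ratio of the CPM of one keratin to that of another in each library, 1 panel a ratio with its own axis; points are libraries and bars are group means. The Krt8 to Krt18 panel has group means of 1.78, 1.78 and 1.80 from left to right, whereas Krt20 to Krt8 is above -4 in every knockout library and below -5.5 in every WT library.

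By the root mean square difference of centred log2 CPM over the 9 libraries, the members most alike were Krt7 and Krt8 (0.36) and the least alike Krt7 and Krt20 (2.70). Values were not scaled, so the measure follows the size of a gene's variation as well as its pattern. Candidates were 12465 other genes whose log2 CPM averaged 2 or more. Those nearest to Krt8 were Itga5, an integrin subunit that binds fibronectin (0.13), Serpine2, a protease inhibitor (0.13), and Tpm4, a tropomyosin (0.14). Nearest to Krt7 were Rpl12 (0.07), a protein of the large ribosomal subunit whose reads may be shared with near-identical copies, BC005803 (0.08) and Tnip2 (0.09). Krt18 was nearest to Oit1 (0.18), Plaur, the urokinase receptor (0.24), and 2310014H01Rik (0.24). The nearest genes to Krt19 were Gpr123 (0.29), Sfn, an epithelial 14-3-3 protein (0.30), and S100a6, a calcium-binding protein (0.31). Krt20 lay farther from any gene; its nearest were Ubd, a ubiquitin-like protein induced by cytokines (0.46), Ccl2, a chemokine for monocytes (0.60), and Il1rn, the interleukin-1 receptor antagonist (0.67). The Krt20 values of WT 1 and WT 3 rest on 6 and 5 expected counts. The 9 points behind each value fall into the same 3 groups, and likeness says nothing of a shared function.

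Of 19 other keratins listed, 14 had a row and 8 were tested. In KO_PBS relative to WT 1 rose and 1 fell, a share near the 24.4% of all tested genes, with a median log2 fold change of 0.71. Krt17, a type I keratin of basal and wounded epithelium, had 15, 50 and 10 expected counts in KO_antimiR21 libraries and 177, 69 and 23 in KO_PBS libraries, against 1 in each WT library. Krt17 passed in both comparisons with WT (edgeR adjusted p = 0.0401 for KO_antimiR21 and 0.00452 for KO_PBS), and the ratio of summed counts per library size to WT was 21.9 in KO_antimiR21, with an exact 95% interval of 7.20 to 108 for counting error alone, and 66.8 in KO_PBS, with an interval of 22.6 to 326. Krt10, a type I keratin of differentiating epidermis, fell in KO_PBS relative to WT by 0.87 on the log2 scale (adjusted p = 0.0229). Krt80, a type II keratin, had -0.62 ± 0.28 and did not pass (adjusted p = 0.146).

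Of the other intermediate filament genes, 5 of 10 tested were higher and none lower in KO_PBS relative to WT, with a median of 1.28, where 14.6% of all tested genes were higher; the other 5 did not pass. Vim, the intermediate filament of mesenchymal cells, stood at 317, 227 and 135 CPM in KO_antimiR21 libraries and 274, 288 and 263 CPM in KO_PBS libraries, against 38.5, 64.6 and 69.4 CPM in WT libraries, and its log2 fold change of KO_PBS over WT was 2.26 ± 0.32 (edgeR adjusted p = 0.00228). The others were Nes, a filament of podocytes and progenitor cells (1.58 ± 0.18), Prph, a neuronal filament (edgeR adjusted p = 0.0279), and the nuclear lamins Lmnb1 (1.49 ± 0.17) and Lmna (1.08 ± 0.18). Vim, Nes and Lmnb1 also passed in KO_antimiR21 relative to WT, all higher, where 6.72% of all tested genes were higher.

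Partners of keratin filaments were called about as often as tested genes in general, of which 24.4% passed, 14.6% higher and 9.85% lower. Of 14 tested genes of desmosomes and plakins, which anchor keratin filaments at junctions, 3 rose and 1 fell in KO_PBS relative to WT, with a median of 0.35. Plec1, encoding the cytolinker plectin, rose by 0.92 ± 0.17 and the desmosomal plakophilins Pkp1 and Pkp2 by 1.91 ± 0.50 and 0.45 ± 0.12, and Pkp4 fell by 0.80 on the log2 scale. Among 13 genes that chaperone or modify keratins, 2 rose and none fell, with a median of 0.02: Tgm2, a transglutaminase that crosslinks proteins (0.997 ± 0.187), and Hspb1, a small heat shock protein (2.05 ± 0.45). Hspb1 is also listed under its older symbol Hsp25 and its reads may be split between the 2 rows, so its value is uncertain. Hspa1a, an inducible heat shock protein nearly identical to Hspa1b and so also uncertain, had -1.34 ± 0.46 and did not pass (edgeR adjusted p = 0.0661).

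Epithelial identity genes had a median near that of all genes. Of 13 tested, 3 rose and 1 fell in KO_PBS relative to WT, near the 14.6% and 9.85% of all tested genes, with a median of -0.04 (0.24 without TMM factors, where that of all genes was 0.25). The risers were the tight junction claudins Cldn3 (1.56 ± 0.33), Cldn4 (1.74 ± 0.37) and Cldn7 (0.91 ± 0.26), and the kidney cadherin Cdh16 fell by 0.59 on the log2 scale (edgeR adjusted p = 0.0476). The calls on Krt10, Pkp4 and Cdh16, the genes that fell in these lists, were lost without TMM factors. The general epithelial cadherin Cdh1 had -0.04 ± 0.16. No gene of these 5 lists other than Krt17, Vim, Nes and Lmnb1 was called in KO_antimiR21 relative to WT, where 7.15% of all tested genes passed. None was called between KO_antimiR21 and KO_PBS, where 0.0% of all tested genes passed.

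**Figure D4:**
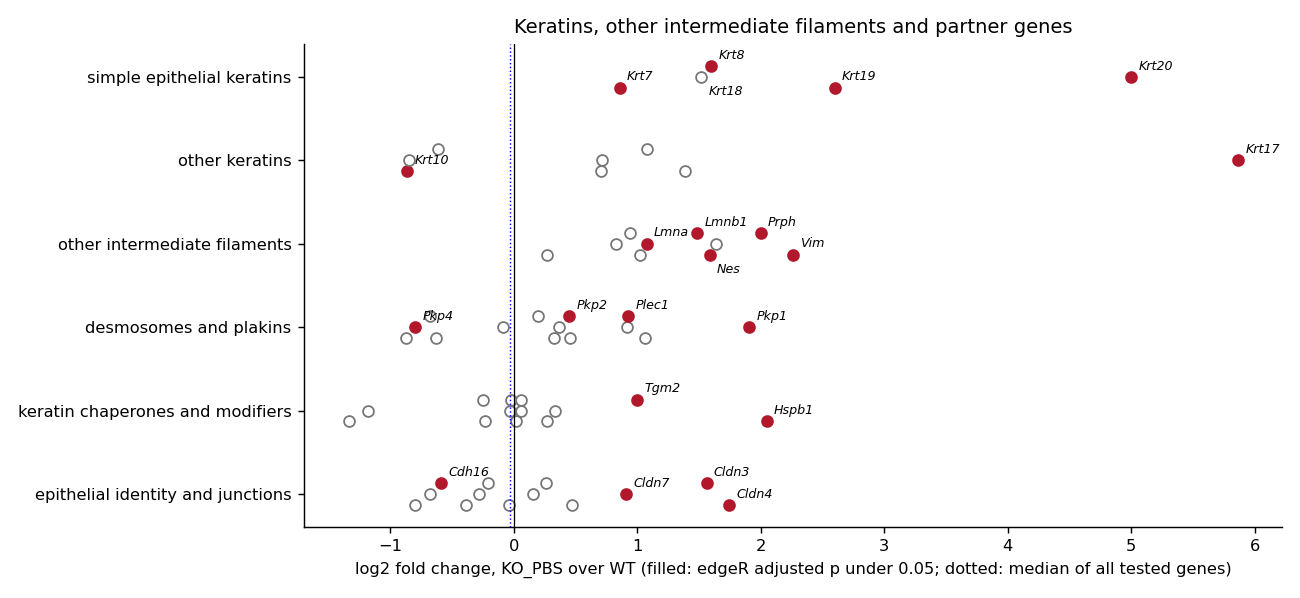
Log2 fold change of KO_PBS over WT for the simple epithelial keratins and 5 lists of related genes; each point is a tested gene, filled where the edgeR adjusted p was under 0.05, and the dotted line is the median of all tested genes. The keratins and other intermediate filaments lie to the right (medians 1.60 and 1.28), whereas chaperones and epithelial identity genes straddle 0 (0.02 and -0.04); Krt17, the rightmost point, rests on 1 count in each WT library.

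Markers of the cell types that could carry these keratins did not share one direction. Injured tubule markers rose most, 9 of 12 in KO_PBS relative to WT with none lower and a median of 2.49, where 14.6% of all tested genes were higher; their summed level was 8986 to 23080 CPM in KO_antimiR21 and 18688 to 31162 CPM in KO_PBS, against 2033 to 2959 CPM in WT. Spp1, the matrix protein osteopontin, rose by 3.65 ± 0.44, Cd44, a hyaluronan receptor, by 4.30 ± 0.60, and Vcam1, an adhesion molecule, by 4.42 ± 0.62. Most of the summed level was Spp1, with means of 12767 CPM in KO_antimiR21, 20229 CPM in KO_PBS and 1606 CPM in WT. In KO_antimiR21 relative to WT 6 of the 12 rose, where 6.72% of all tested genes were higher. As for the keratins, no gene of any list was called against WT with sex as a covariate.

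Of all tested genes, 9.85% were lower in KO_PBS relative to WT, and markers of healthy tubule segments that passed were all among the lower ones. Proximal tubule markers fell in 8 of 12 cases and rose in none, with a median of -1.55, and their sum was 7335 to 23313 CPM in KO_antimiR21 and 2368 to 10697 CPM in KO_PBS, against 23239 to 42618 CPM in WT. By group mean the largest part of that sum was Kap, at 8947, 2973 and 15737 CPM in the same order. Principal cells of the collecting duct, which carry simple keratins, had 3 of 10 markers lower and none higher, with a median of -0.86, and sums of 851 to 1048 CPM in KO_antimiR21 and 763 to 1058 CPM in KO_PBS, against 1056 to 1785 CPM in WT. Intercalated cells had 6 of 8 markers lower and none higher, with a median of -1.12, and sums of 433 to 529 CPM in KO_antimiR21 and 334 to 408 CPM in KO_PBS, against 511 to 818 CPM in WT. No marker of these 3 segments was called in KO_antimiR21 relative to WT, where only 0.427% of all tested genes were lower. Their medians in that comparison were still negative, -0.82 for proximal tubule, -0.76 for principal cells and -0.49 for intercalated cells.

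Urothelium, the lining of the renal pelvis and a normal site of Krt20, Krt7 and Krt19, was represented in every library, with none of its 9 markers at 0. No urothelial marker passed in any comparison, and their median log2 fold change of KO_PBS over WT was 0.20. The summed level was 138 to 168 CPM in KO_antimiR21 and 104 to 184 CPM in KO_PBS, against 32.0 to 160 CPM in WT. By group mean most of it was Psca, at 108, 108 and 54.4 CPM in the same order. The 4 uroplakins, which coat the urothelial surface, summed to 22.7, 22.6 and 49.7 CPM in KO_antimiR21 libraries and 31.3, 42.2 and 9.38 CPM in KO_PBS libraries, against 11.98, 51.9 and 15.5 CPM in WT libraries. WT 2, the WT library with the most Krt8, Krt18, Krt19 and Krt20, thus had the most uroplakin of all 9, and the knockout libraries with the most uroplakin (KO_antimiR21 3) and the least (KO_PBS 3) had 16.4 and 59.7 CPM of Krt20. The part of urothelium in the keratin values was not tested.

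Mesothelium, another keratin-bearing surface, had 3 tested markers, of which Gpm6a fell in KO_PBS relative to WT by 2.07 on the log2 scale (edgeR adjusted p = 0.008625) and the other 2 did not pass. Those 2 went opposite ways. Msln had means of 7.07 CPM in KO_PBS and 2.58 CPM in WT, and Upk3b 6.32 and 12.8 CPM. The summed level of the list was 70.1 to 164 CPM in KO_antimiR21 and 38.7 to 89.5 CPM in KO_PBS, against 179 to 292 CPM in WT. Most of that sum was Gpm6a, with means of 92.2, 50.8 and 213 CPM in the same order. Bnc1, also listed, was too low to be tested, with means of 0.0352, 0.00913 and 0.0134 CPM. How much of the Gpm6a level came from mesothelium was not tested.

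**Figure D5:**
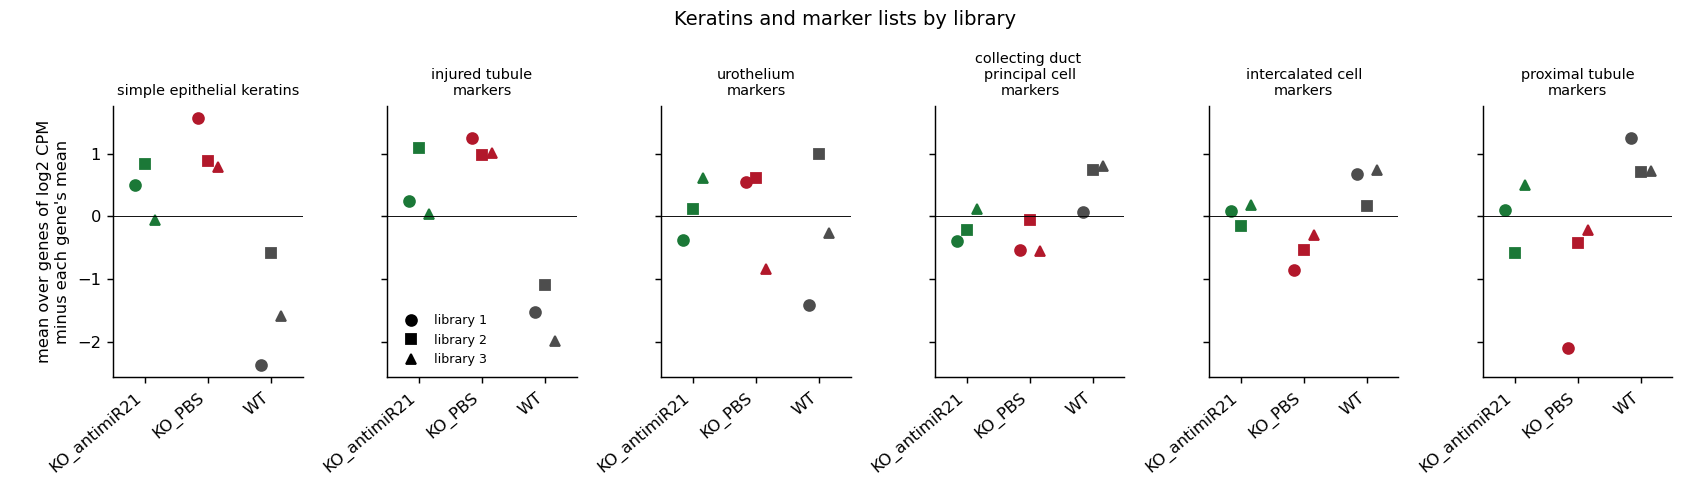
Keratins and 5 marker lists in each library, as the mean over genes of log2 CPM minus each gene's own mean; points are libraries, 1 panel a list. The keratins and injured tubule markers are lowest in the WT libraries (keratins -2.37 to -0.58 in WT, 0.79 to 1.56 in KO_PBS), whereas urothelial markers overlap among the groups, with WT 1 lowest (-1.41) and WT 2 highest (0.99).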

How the data were processed

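RNA of mouse kidney was sequenced in 9 libraries, prepared from 150 ng of total RNA with a TruSeq v2 kit, per the labels' protocols. The authors deposited a table of RSEM expected counts for each library, made with Bowtie and RSEM on the mm9 build, per the submitters' processing notes, and a log2 matrix of the 9 libraries. Each column of that matrix equals log2 CPM plus 1 constant per library. Versions, annotation and strand are not given in the sources used here. RSEM can share reads between near-identical copies, and the annotation lists a pseudogene of Krt8, so Krt8 carries that uncertainty.

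Expected counts were rounded, filtered with filterByExpr and fitted in 1 edgeR quasi-likelihood model of 3 group means with TMM factors (0.894 in WT 1 to 1.15 in KO_PBS 1). Two-sided p-values received Benjamini-Hochberg adjustment over 17315 genes, and a gene was called at an adjusted p under 0.05. CPM are counts scaled to the TMM-adjusted library size. SE is the fold change divided by the root of the F statistic, and intervals are approximate. Ratios were compared with exact permutation tests.

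The members and gene lists were chosen with earlier results of these data known. Named genes were drawn from the members, the 3 genes of each list with the lowest p in KO_PBS against WT, and the 3 genes nearest to each member. Prph, Lmna, Pkp1, Cdh16 and Cdh1 were named after their values were seen. Replicates of a group differed by far more than counting noise (chi-square per gene at least 29.5). The fit was tested on simulated counts. Alternatives were other scalings, filters and tests, a replicate block, sex, the library code, the 2 groups alone and each library left out. Python 3.11.15 (matplotlib 3.10.9, scipy 1.17.1, numpy 2.4.6, pandas 2.3.3) and R 4.3.3 (DESeq2 1.42.0, limma 3.58.1, edgeR 4.0.16) were used.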

Additional observations from a re-analysis of the deposited data

How the results depend on the processing

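The number of keratins called in KO_PBS against WT, 4, was 4 to 5 under other scalings, filters and tests and 2 to 5 when 1 library was left out (2 without WT 3); it was 0 with sex as a covariate and among male libraries, settings in which 0 genes were called. Genes called, 4226, ranged from 2423 to 4332 with 1 library left out. Without TMM factors the median of all genes moved to 0.25 for KO_PBS over WT, -0.14 for KO_antimiR21 over KO_PBS and 0.11 for KO_antimiR21 over WT, and the calls against WT split into 3753 higher and 904 lower, against 2521 and 1705; relative to that median the keratins were higher as before. In KO_antimiR21 against KO_PBS, 0 keratins were called in every setting, DESeq2 called 19 genes, and Krt18 had 0.084 with the code as a covariate and 0.084 within code L5. In KO_antimiR21 against WT, the 1 keratin called became 2 by library size only, 3 in DESeq2 (2011 genes), 2 with limma-trend on the deposited matrix, and 0 with sex, among male libraries or with the code as a covariate (0 genes each) and 0 with the 2 groups alone (707 genes); with 1 library left out it was 0 to 2, and genes called 667 to 1602. Leaving out 1 library moved the Krt8 to Krt18 difference over -0.28 to 0.40 for KO_PBS minus WT, -0.20 to 0.26 for KO_antimiR21 minus KO_PBS and -0.24 to 0.40 for KO_antimiR21 minus WT, and the Krt20 to Krt8 difference of KO_antimiR21 minus KO_PBS over -0.32 to 0.28. Replicate numbers did not pair the libraries: same-numbered libraries had correlations of -0.37 to 0.44. With a replicate block 3205 genes and 3 keratins were called in KO_PBS against WT; Krt7 had 0.81 (edgeR adjusted p = 0.0774). With 1 library left out, 4 to 6 of the 10 other intermediate filament genes and 8 to 9 of the 12 injured tubule markers were higher in KO_PBS than in WT, against 5 and 9. The cause of these changes was not tested. With 3 libraries a group, WT of mixed sex and 5 and 6 counts of Krt20 in 2 WT libraries, fold changes of Krt20 are imprecise.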
